A study of Mus musculus with 8 samples.

Results

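The 9 genes described here encode chemokine receptors carried by myeloid cells: Ccr1, Ccr2, Ccr3, Ccr7, Ccrl2, Cx3cr1, Cxcr2, Cxcr3 and Cxcr4. They were taken by gene symbol from an Affymetrix whole-transcript array, on which each of the 9 had 1 probe set annotated to that gene alone, among 19938 genes measured. The arrays compared 2 groups of mouse macrophages obtained by 10 days of culture of bone marrow cells in M-CSF at 10 ng/ml, kept overnight without serum and then given murine IL-6 at 50 ng/ml during 4 h. Control macrophages (Ctrl, 4 arrays) came from mice of the source IL6ralpha flox/flox, and receptor-deficient macrophages (IL6raKO, 4 arrays) from mice labelled IL6ralpha flox/flox LysMCre tg/wt, in which the lysozyme M locus drives Cre in myeloid cells. All mice thus carried the floxed Il6ra alleles, and every culture received IL-6, so the arrays compare genotypes after IL-6 and not cells with and without it. Only IL6raKO mice carried Cre, so an effect of Cre itself or of its insertion cannot be told apart from that of the missing receptor. The labels call the arrays biological replicates without saying that each came from a separate mouse, and p-values here then rest on the spread of these 8 samples only, which may be technical. The age of the mice was not given in the sources used here.

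Chemokine receptors are G-protein coupled receptors that steer cells along gradients of small secreted chemokines, mainly through Gi proteins. Ccr2 is known for the exit of inflammatory monocytes from bone marrow, Cx3cr1 for patrolling monocytes and tissue macrophages, Ccr3 and Cxcr2 for the recruitment of eosinophils and basophils and of neutrophils, and Cxcr4 for the retention of leukocytes in bone marrow. Ccrl2 is an atypical member that binds the chemoattractant chemerin and presents it to other cells without the usual G-protein signal.

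No receptor of the 9 was called between genotypes, and the results turned on 3 patterns. Ccr3 had the lowest p, at 79.3% of the Ctrl mean. It was the only member whose IL6raKO values all lay below the Ctrl values, as in 2.37% of all genes. Ccr2 had the lowest mean ratio, 76.8% of Ctrl, but also the widest spread between arrays. Cxcr4, the member with the brightest probe set, varied little in either group. With limma over all 19938 genes at a Benjamini-Hochberg adjusted p under 0.05, 0 of 9 members passed, where 0.0301% of all genes did. At an unadjusted p under 0.05 there were 2 members, Ccr3 lower and Cxcr3 higher, where 7.28% of all genes passed (4.54% lower and 2.74% higher). The exact permutation test over the arrays, whose smallest possible p with 4 against 4 is 0.0286, reached that value for 1 member, Ccr3. Groups without overlap always give that p, so the test repeats the separation. Of all genes, 2.37% were separated with IL6raKO below Ctrl and 2.07% with IL6raKO above. The members' median difference (IL6raKO minus Ctrl, log2) was -0.08, and that of all genes was -0.01. The members' median was 0.049 without IL6raKO replicate 1 and -0.015 among genes at or above the median level, a filter that leaves out Cxcr2.

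The promoter windows of Ccr3, Ccr2 and Cxcr3 are shown because these receptors had the largest differences in either direction. RefSeq windows of 300 bases (250 before an annotated start and 50 from it on, GRCm38.p6) were found for 8 of the 9 members. Capitals mark every match, on either strand, to the letters AGATAA (bound by GATA factors), GAGGAA (a PU.1 core) and TGANTCA (AP-1).
Ccr3, chr9:124021721-124022020, plus strand: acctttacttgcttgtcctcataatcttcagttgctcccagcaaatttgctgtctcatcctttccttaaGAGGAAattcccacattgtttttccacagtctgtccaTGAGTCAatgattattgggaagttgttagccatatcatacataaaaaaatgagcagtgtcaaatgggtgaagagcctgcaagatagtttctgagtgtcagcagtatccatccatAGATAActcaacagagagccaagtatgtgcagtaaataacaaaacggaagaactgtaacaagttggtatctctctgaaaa
Ccr2, chr9:124101933-124102232, plus strand: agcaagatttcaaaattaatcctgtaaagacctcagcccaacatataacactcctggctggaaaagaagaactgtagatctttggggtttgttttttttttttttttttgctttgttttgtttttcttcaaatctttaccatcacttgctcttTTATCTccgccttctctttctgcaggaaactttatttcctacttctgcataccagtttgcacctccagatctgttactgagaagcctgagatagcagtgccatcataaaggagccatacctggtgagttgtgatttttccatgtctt
Cxcr3, chrX:101734098-101734397, minus strand: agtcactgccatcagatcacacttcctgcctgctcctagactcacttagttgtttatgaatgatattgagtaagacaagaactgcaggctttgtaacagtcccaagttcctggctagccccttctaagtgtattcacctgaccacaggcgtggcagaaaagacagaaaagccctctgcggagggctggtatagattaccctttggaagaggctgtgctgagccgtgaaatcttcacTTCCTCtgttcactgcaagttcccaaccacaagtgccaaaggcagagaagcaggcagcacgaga
The Ccr3 window held 1 match to each of the 3 motifs, the Ccr2 window 1 to the GATA letters and the Cxcr3 window 1 to the PU.1 letters, and no match overlapped another. Among 32851 windows of the same length, 11.2% held the GATA letters, 28.3% the PU.1 letters and 7.81% the AP-1 letters. The letters TTCNNNGAA of a STAT site, held by 8.3% of windows, were found in 0 of the 10 windows of the members. That says only that these letters are not in those windows. A match is a description of the sequence, and no factor's binding was measured.

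Il6ra, the targeted gene, was at 8.42 ± 0.02 in Ctrl and 7.92 ± 0.14 in IL6raKO (log2 expression, mean ± SD, n = 4), with a limma adjusted p of 0.0607 over all genes and no overlap between the groups. It passed at an adjusted p under 0.05 in 4 alternatives, within a range of 0.00762 to 0.644. Among these were a trended and robust variance (limma adjusted p = 0.00762) and centring on the 75th percentile (0.0438). The others were filters to genes at or above the median level (0.0142) or the 25th percentile (0.0328). The limma adjusted p of 0.0607 was also under the 0.1 threshold of another alternative. The 1 probe set of Il6ra was not resolved into probes inside and outside the deletion. Of 10 macrophage markers all 10 were measured, 9 of them above percentile 90 of mean expression, in cells labelled as macrophages. Array medians were 6.31 to 6.35. Ctrl replicate 4 stood apart from the rest, with a score of 21.6 on principal component 1 against -6.60 to 4.82 for the other 7 arrays.

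The receptors of eosinophils, basophils and neutrophils included both the lowest p of the members and one of their widest spreads. Ccr3, the receptor for the eotaxins Ccl11 and Ccl24, had log2 expression of 8.14, 8.34, 8.55 and 8.46 in Ctrl replicates 1 to 4 and of 7.89, 8.13, 7.99 and 8.14 in IL6raKO replicates 1 to 4. All 4 IL6raKO arrays lay below all 4 Ctrl arrays, but IL6raKO replicate 4 and Ctrl replicate 1 were only 2e-05 apart. The share of all genes with IL6raKO arrays entirely below Ctrl arrays was 2.37%, and no receptor lay entirely above, as 2.07% of all genes did. The difference of Ccr3 was -0.33 (SE 0.09, 95% confidence interval -0.54 to -0.13, limma unadjusted p = 0.00416), with an adjusted p of 0.566 over all genes. In bulk RNA, fewer cells that carry a transcript and less of it per cell cannot be told apart.

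Markers of cells known to carry Ccr3 were measured on the same arrays. Of 12 markers of mast cells, basophils and eosinophils, all 12 were measured, 11 had a lower mean in IL6raKO, and 0 passed the test or an unadjusted p under 0.05 in limma. With the replicate number as a block in limma, Mcpt8, Cpa3 and Prss34 of the 12 had an unadjusted p under 0.05 (0.0017, 0.00367 and 0.0283). All 3 were lower, where 7.3% of all genes had such a p, and 0 passed after adjustment (lowest of the 3, limma adjusted p = 0.575). The labels do not say what arrays of equal replicate number share. Over all genes the deviations of such arrays were hardly correlated (-0.01 to 0.04). The p-values under the block thus rest on a pairing that may not exist. Mcpt8, Cpa3 and the median of the 12 markers rose from replicate 1 to replicate 4 in both genotypes, whereas Hdc and Prss34 did not. Whether equal numbers share a batch was not tested. The summed level of the 12 markers (log2 of the sum of linear values) ranged from 10.16 to 10.88 in Ctrl and from 9.92 to 10.59 in IL6raKO. Array values of this kind have no true 0. Mcpt8, a basophil protease, was at 6.87, 7.37, 7.81 and 8.33 in Ctrl replicates 1 to 4 and at 6.19, 7.20, 7.52 and 7.67 in IL6raKO replicates 1 to 4. These groups overlapped, and IL6raKO replicate 1 was lowest for Mcpt8 as it was for Ccr3. That array was the lowest for 6 of the 12 markers and not for the other 6, among them Hdc, which had the lowest p of the list (-0.16, limma unadjusted p = 0.154). Of the eosinophil markers, Epx and Prg2 differed by -0.10 and -0.15 and Siglecf and Il5ra by -0.02 and 0.05. Il5ra and Epx were dim, at percentiles 5.07 and 16.9 of mean expression, whereas Prg2 and Siglecf stood at 64.4 and 72.7. Cpa3, a carboxypeptidase of mast cells and basophils, was lowest in IL6raKO replicate 1, at 7.39, and highest in Ctrl replicate 4, at 9.17. The part of these cells in the Ccr3 difference was not tested.

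Cxcr2, the receptor for the neutrophil-attracting chemokines Cxcl1, Cxcl2 and Cxcl5, was at 5.97, 6.26, 5.85 and 6.50 in Ctrl replicates 1 to 4 and at 5.43, 5.96, 6.31 and 6.31 in IL6raKO replicates 1 to 4. Its probe set was the dimmest of the members, at percentile 41.6 of mean expression, and the groups overlapped over most of their range. The difference was -0.14 (95% confidence interval -0.56 to 0.28), and without IL6raKO replicate 1, the lowest array, it was 0.049. Of 11 neutrophil markers, all measured, 8 had a lower mean in IL6raKO. In limma 1 of the 11 (Mpo) had an unadjusted p under 0.05, where 7.28% of all genes did, and 0 passed. The summed level of the 11 markers ranged from 11.51 to 11.86 in Ctrl and from 11.52 to 11.67 in IL6raKO, but Mmp8 made up 68.9% of that sum. Without Mmp8 the sum ranged from 9.84 to 10.06 in Ctrl and from 9.86 to 10.09 in IL6raKO, and the part of neutrophils in the values of Cxcr2 was not tested.

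**Figure D1:**
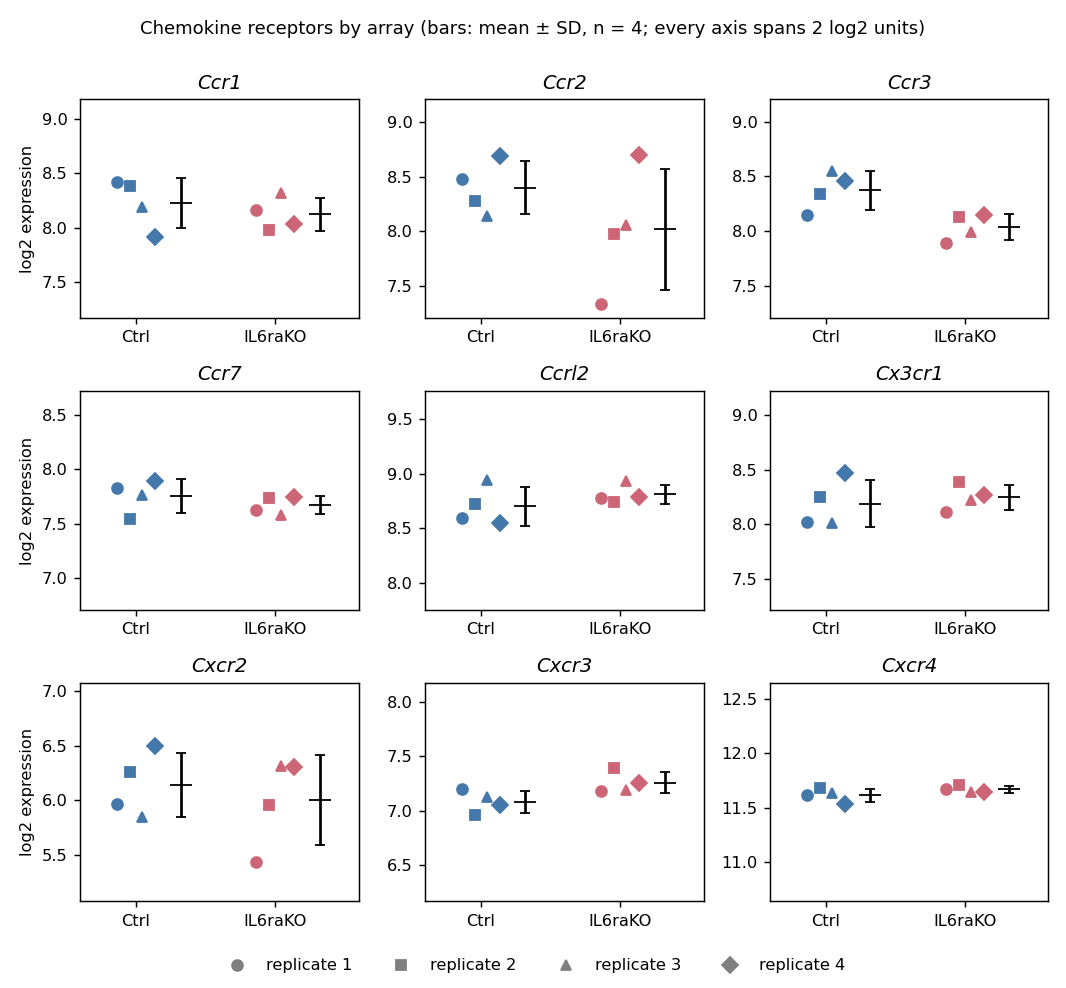
Log2 expression of the 9 receptors (vertical axes, each spanning 2 log2 units) in Ctrl and IL6raKO macrophages, 1 point per array with a shape per replicate number, and bars for mean ± SD (n = 4). The groups separate for Ccr3, with the nearest arrays 2e-05 apart, and overlap for the other 8 receptors, with Ccr2 and Cxcr2 spread most widely and Cxcr4 least.

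Among the receptors of monocytes and macrophages, Ccr2 differed most in mean and was the least even between cultures. Ccr2, the receptor for Ccl2, Ccl7 and Ccl12, was at 8.48, 8.28, 8.14 and 8.69 in Ctrl replicates 1 to 4 and at 7.33, 7.98, 8.06 and 8.70 in IL6raKO replicates 1 to 4. Replicates 1 to 3 of IL6raKO lay below every Ctrl array, whereas IL6raKO replicate 4 was the highest of all 8. The difference was -0.38 (SE 0.23, 95% confidence interval -0.88 to 0.12, limma adjusted p = 0.736). It was -0.15 without IL6raKO replicate 1 and -0.61 without IL6raKO replicate 4, and the adjusted p stayed at 0.627 or above in every setting tried. The SD was 0.24 in Ctrl and 0.56 in IL6raKO (n = 4 each), and the spread within groups stood at percentile 99.8 of all genes. Of 10 monocyte markers 7 were measured (Ly6c1 and Ly6c2 share probe sets and were left out), and 6 of the 7 had a lower mean in IL6raKO. None of these 7 had an unadjusted p under 0.05 in limma. Their summed level ranged from 9.54 to 9.80 in Ctrl and from 9.52 to 9.78 in IL6raKO, and their part in the Ccr2 values was not tested.

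Ccr2, Ccr3 and Cxcr2 shared their lowest array, IL6raKO replicate 1, in which the median of the mast cell, basophil and eosinophil markers was also lowest, 0.22 below its mean over all arrays (-0.22). The same median was highest in Ctrl replicate 4 (0.24) and IL6raKO replicate 4 (0.20), the 2 arrays with the highest Ccr2. Ctrl replicate 1 ran the other way, with the second lowest marker median (-0.13) and a high Ccr2 (8.48). The median of the monocyte markers was lowest in IL6raKO replicate 2 (-0.11) and highest in Ctrl replicates 1 and 4 (0.07 in each). In IL6raKO replicates 1 and 4, the lowest and the highest array for Ccr2, the monocyte median stood at -0.07 and 0.03. The median of the neutrophil markers was lowest in IL6raKO replicate 1 (-0.09) and highest in Ctrl replicate 4 (0.16), as was Cxcr2. The other arrays did not all follow. Ctrl replicate 1 had the second highest neutrophil median (0.13) and a Cxcr2 of 5.97. In Ctrl replicate 2 and IL6raKO replicate 4 that median was at -0.06, with Cxcr2 at 6.26 and 6.31. For Ccr3 the highest array was another, Ctrl replicate 3, in which the median of the mast cell, basophil and eosinophil markers stood at 0.07. The median of the macrophage markers was at 0.00 in IL6raKO replicate 1 and at -0.11 in Ctrl replicate 4.

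**Figure D2:**
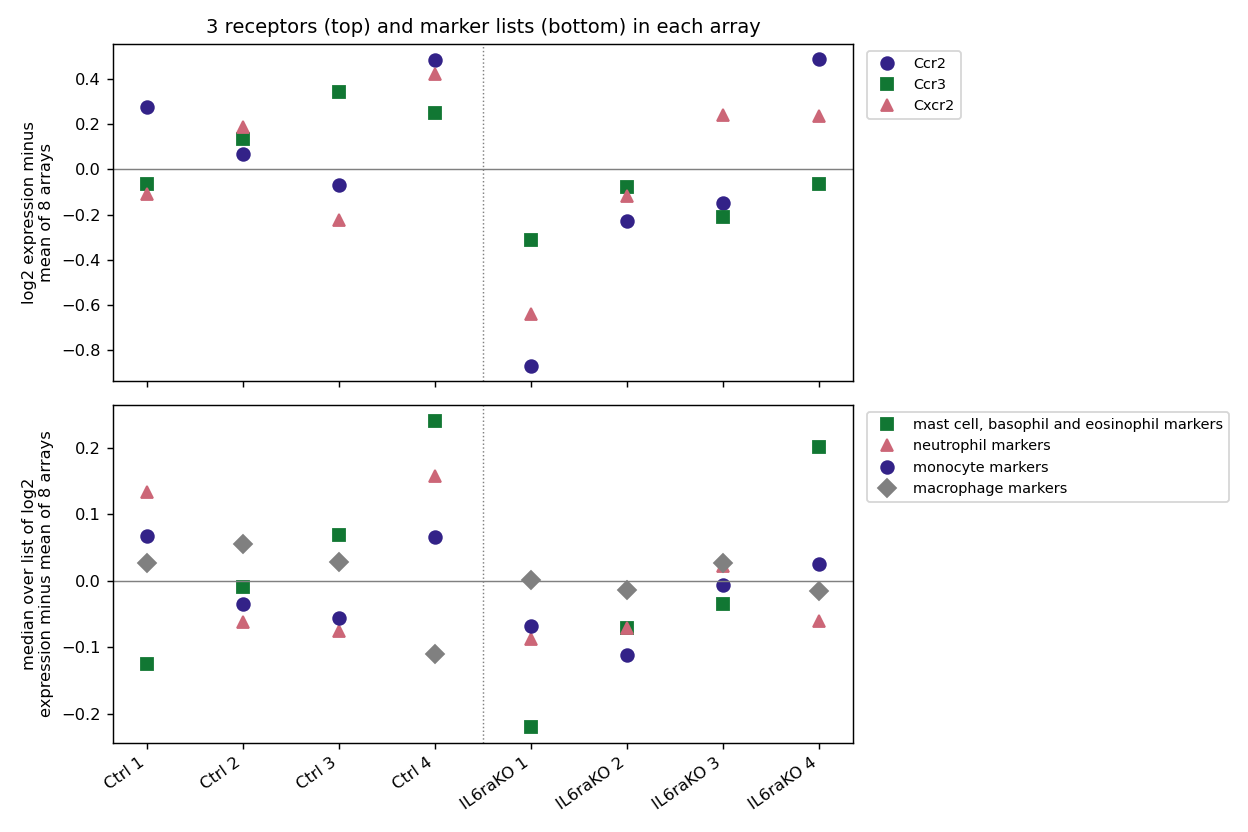
Top, log2 expression of Ccr2, Ccr3 and Cxcr2 minus each gene's mean over 8 arrays (vertical axis) for each array (horizontal axis). Bottom, the median over each marker list of the same quantity, on which the mast cell, basophil and eosinophil markers run from -0.22 in IL6raKO replicate 1 to 0.24 in Ctrl replicate 4.

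Ccr1, a receptor for Ccl3, Ccl5, Ccl6 and Ccl9, was at 8.42, 8.39, 8.19 and 7.91 in Ctrl replicates 1 to 4 and at 8.16, 7.98, 8.32 and 8.03 in IL6raKO replicates 1 to 4. The IL6raKO values fell inside the Ctrl range, whose lowest array was Ctrl replicate 4. The difference was -0.10 (95% confidence interval -0.35 to 0.15). Without Ctrl replicate 4 it was -0.21, with a limma adjusted p of 0.786, and without Ctrl replicate 1 it was -0.038.

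Cx3cr1, the receptor for the membrane-bound chemokine Cx3cl1, was at 8.02, 8.25, 8.01 and 8.47 in Ctrl replicates 1 to 4 and at 8.11, 8.39, 8.22 and 8.27 in IL6raKO replicates 1 to 4. The IL6raKO arrays again lay inside the Ctrl range. The difference was 0.06 (95% confidence interval -0.17 to 0.29). Its direction was not settled, since it was -0.0024 with Ctrl replicate 3 left out and 0.15 with Ctrl replicate 4 left out.

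Ccr7 and Cxcr3 are better known from mature dendritic cells and from activated T and NK cells. The interval of Ccr7 held 0, and Cxcr3 had the highest positive difference of the 9 receptors. Ccr7, the receptor for the lymph node chemokines Ccl19 and Ccl21, was at 7.83, 7.54, 7.76 and 7.89 in Ctrl replicates 1 to 4 and at 7.62, 7.74, 7.58 and 7.74 in IL6raKO replicates 1 to 4. Its groups overlapped, and the difference was -0.08 (95% confidence interval -0.26 to 0.10). It was -0.15 without Ctrl replicate 2 and -0.038 without Ctrl replicate 4.

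Cxcr3, the receptor for the interferon-induced chemokines Cxcl9, Cxcl10 and Cxcl11, was at 7.20, 6.96, 7.13 and 7.05 in Ctrl replicates 1 to 4 and at 7.18, 7.39, 7.19 and 7.26 in IL6raKO replicates 1 to 4. Ctrl replicate 1 lay above IL6raKO replicates 1 and 3, and otherwise the IL6raKO arrays were higher. The mean of IL6raKO was 113% of the Ctrl mean, a difference of 0.17 (SE 0.07, 95% confidence interval 0.01 to 0.33). The limma unadjusted p was 0.0379 and the adjusted p 0.669, while the exact two-sided permutation test gave p = 0.0857. Of 12 T and NK cell markers 11 were measured and 9 had a lower mean in IL6raKO. Unadjusted p-values under 0.05 in limma were found for Cd3d (-0.26) and Cd8a (-0.17), lower, and for Cd3g (0.22), higher, with 0 passing over all genes. Of all genes, 7.28% had such a p (4.54% lower and 2.74% higher). The summed level of the 11 markers was 9.09 to 9.22 in Ctrl and 9.02 to 9.13 in IL6raKO, ranges that overlap. Of 11 dendritic cell markers 10 were measured, 6 had a lower mean in IL6raKO, 1 (Zbtb46, -0.22) had an unadjusted p under 0.05 and 0 passed. Their summed level was 11.69 to 11.83 in Ctrl and 11.74 to 11.79 in IL6raKO, of which Itgax, an integrin that macrophages also carry, made up 74.9%. Without Itgax it was 9.73 to 9.86 and 9.73 to 9.78. Of 9 B cell markers 8 were measured, all 8 with a lower mean in IL6raKO and 0 passing, 1 (Ighm) with an unadjusted p under 0.05, at summed levels of 8.81 to 8.95 and 8.72 to 8.83. The part of these cells in the values of Ccr7 and Cxcr3 was not tested.

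Cxcr4, the receptor for Cxcl12, was at 11.62, 11.68, 11.63 and 11.54 in Ctrl replicates 1 to 4 and at 11.67, 11.71, 11.64 and 11.65 in IL6raKO replicates 1 to 4. These 8 values spanned 0.17, the smallest range of the members. Its probe set stood at percentile 99.2 of mean expression and its spread within groups at percentile 3.92 of all genes, so its interval was the narrowest of the 9. The difference was 0.05 (95% confidence interval -0.08 to 0.18), and the interval thus leaves out a difference of the size seen for Ccr3.

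Ccrl2 was at 8.59, 8.72, 8.94 and 8.55 in Ctrl replicates 1 to 4 and at 8.78, 8.74, 8.94 and 8.79 in IL6raKO replicates 1 to 4. The IL6raKO arrays were close to each other and lay inside the Ctrl range. The difference was 0.11 (95% confidence interval -0.08 to 0.30, limma adjusted p = 0.805). It was 0.06 without Ctrl replicate 4 and 0.19 without Ctrl replicate 3, where the limma unadjusted p was 0.0308 and the adjusted p 0.692.

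**Figure D3:**
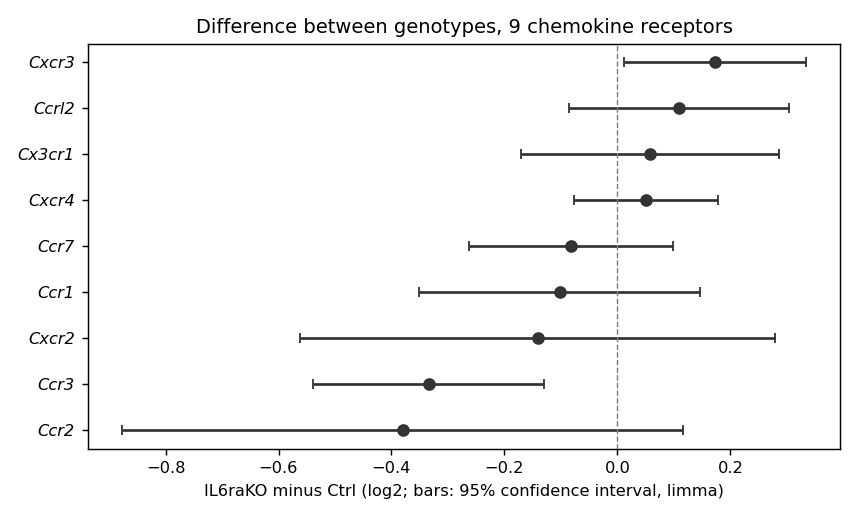
Difference between genotypes (IL6raKO minus Ctrl, log2, horizontal axis) for the 9 receptors, with points for the limma estimate and bars for the 95% confidence interval. The intervals of Ccr3 (-0.54 to -0.13) and Cxcr3 (0.01 to 0.33) leave out 0 before adjustment over all genes, and the widest belongs to Ccr2.

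The receptors differed widely in how even they were between cultures of 1 group. The median within-group SD of the 9 members was 0.15, and that of all genes 0.11. Ccr2 (0.43) and Cxcr2 (0.36) stood at percentiles 99.8 and 99.6 of all genes, Ccr1 (0.20) at 90.7 and Cx3cr1 (0.17) at 85.0. Ccr3 (0.15), Ccrl2 (0.14) at 68.2, Ccr7 (0.12) at 56.9 and Cxcr3 (0.10) at 38.9 were nearer the middle of all genes. Ctrl replicate 4 held the highest value of 3 members (Ccr7, Cx3cr1 and Cxcr2) and the lowest of 3 others (Ccr1, Ccrl2 and Cxcr4).

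**Figure D4:**
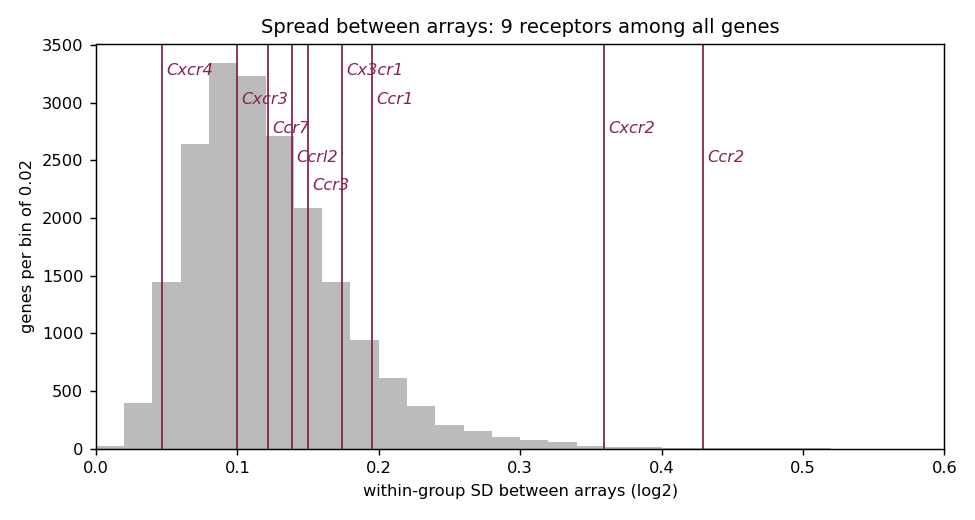
Number of genes (vertical axis) by within-group SD between arrays (log2, horizontal axis, 6 genes beyond 0.6 not drawn), with a line at the value of each of the 9 receptors. Cxcr4 lies near the low end at 0.05, and Cxcr2 (0.36) and Ccr2 (0.43) lie in the upper tail.

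In gene order on chromosome 9 of the RefSeq assembly, Ccr1, Ccr1l1, Ccr3 and Ccr2 follow each other among protein-coding genes. Their differences were -0.10, -0.04, -0.33 and -0.38, so that the values next to Ccr3 ran from near 0 to the lowest of the members. Receptors in this cluster are close in sequence, so signal from a related transcript cannot be told apart in a probe set without its single probes. On chromosome 1 the neighbour of Cxcr2 is Cxcr1, a related receptor, which differed by -0.18 (limma unadjusted p = 0.0328, adjusted p = 0.669).

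The genes most like each receptor were found by Pearson r over the 8 arrays after each group's mean was removed, among 9429 named genes at or above the median level. For Ccr3 these were Ahdc1 (r = 0.98), Tpcn1 (0.98) and Me1 (0.98), and for Ccr2 they were Rps12 (0.98), Rnf130 (0.97) and Strbp (0.96). The first gene was Pcca for Ccr1, Smpdl3b for Ccr7, Utrn for Ccrl2, Ttc39c for Cx3cr1, Med21 for Cxcr2, Mcmbp for Cxcr3 and Mms19 for Cxcr4, with r between 0.95 and 0.99. All values of r come from the same 8 arrays, and the highest of so many is large by construction.

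In 4 other lists of the chemokine system, 0 genes passed over all genes in limma, and the largest differences were those of ligands. Of 24 measured ligands of the 9 receptors, 17 had a lower mean in IL6raKO, and 6 had an unadjusted p under 0.05, 5 lower and 1 higher, where 7.28% of all genes did. The values lay entirely below Ctrl for 4 ligands and entirely above for 1, against 2.37% and 2.07% of all genes. Ccl6, a ligand of Ccr1, was at 10.89, 10.80, 10.83 and 10.48 in Ctrl replicates 1 to 4 and at 10.24, 10.16, 10.36 and 10.43 in IL6raKO replicates 1 to 4. These groups did not overlap, and the difference was -0.45 (SE 0.09, limma adjusted p = 0.303). Ccl9 (-0.21) and Ccl5 (-0.18), which also bind Ccr1, did not overlap either. Cxcl2, a ligand of Cxcr2, was higher in all 4 IL6raKO arrays than in any Ctrl array, with a difference of 0.35 (SE 0.08, adjusted p = 0.448). The ligands' median difference was -0.06.

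Of 14 other chemokine receptors measured, 12 lay below the median level of all genes and 10 had a lower mean in IL6raKO. In limma 2 of the 14 had an unadjusted p under 0.05, Ccr10 (-0.21) and Cxcr1 (-0.18), where 7.28% of all genes did. The median difference of the 14 was -0.04, with Ackr2 at -0.16 and Ackr1 at -0.13, both atypical chemokine receptors. Of 12 measured receptors for other chemoattractants, 5 had a lower mean. Beside the same 7.28% of all genes, 2 of the 12 had an unadjusted p under 0.05. These were Cysltr1, a leukotriene receptor, at -0.25, and P2ry6, a nucleotide receptor, at -0.14, while Ptafr differed by 0.09 and Gpr183 by 0.11 and the median of the list was 0.01. Of 25 measured genes of receptor signalling and desensitization, 15 had a lower mean and 2 an unadjusted p under 0.05, beside 7.28% of all genes. Elmo1, which couples receptors to Rac activation, differed by 0.15 and Vav1, a Rac exchange factor, by -0.15. Grk3, a receptor kinase, differed by 0.17 and Pik3r5, a subunit of PI3K gamma, by -0.10, with a list median of -0.02.

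**Figure D5:**
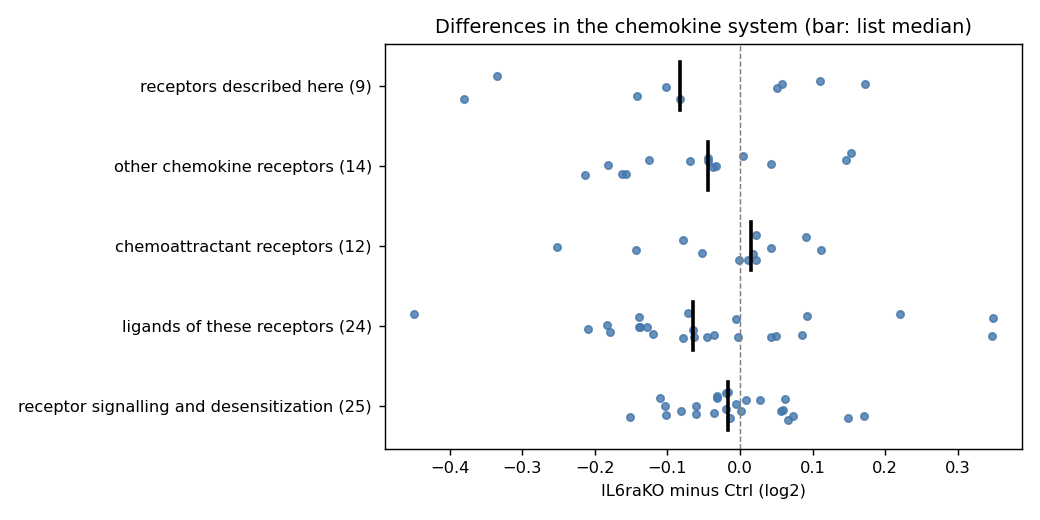
Difference between genotypes (IL6raKO minus Ctrl, log2, horizontal axis) of each measured gene in 5 lists of the chemokine system, 1 point per gene, with a bar at each list's median. The medians lie between -0.08 for the 9 receptors and 0.01 for the chemoattractant receptors, and the lowest point is Ccl6 among the ligands.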

How the data were processed

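The values are log2 expression as deposited by the authors, for 35556 probe sets hybridised with biotin-labelled cDNA. RMA (background correction, quantile normalization and probe summary) and R 2.13.1 are named per the submitters' processing notes. The log2 scale was read from the values, while further steps and the build were not given in the sources used here. Differences of dim probe sets are understated after RMA, and levels of different probe sets cannot be compared as amounts.

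Probe sets were named through GEO's platform annotation: 21789 had 1 symbol, 1621 several and 12146 none. Of the 21789, 21698 had an identifier in RefSeq (GRCm38.p6). A gene with several probe sets was read from the brightest. IL6raKO minus Ctrl was tested with limma 3.58.1 (lmFit, eBayes) in R 4.3.3 on all 8 arrays and 19938 genes, without covariate or filter, two-sided, and checked on simulated data. Intervals are 95%. The number of arrays limits the precision. Members and lists were chosen with earlier results of these data known. Genes were named by rule: the 9 members, Il6ra, up to 4 genes of lowest p per list, the 3 most alike (Pearson r) and neighbours in gene order. Mcpt8 and Cpa3 are among the 4; other genes appear as background. Alternatives were another variance model, a block of replicate numbers, filters, scalings, array weights, other probe set rules, another threshold, an exact permutation test and each array left out. The promoter motifs were chosen after the results were seen.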

Additional observations from a re-analysis of the deposited data

Results flagged for a closer look

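The 4 values of each named gene in each genotype gave 108 groups, of which 2 had 1 array well separated from its replicates; about 5.4 would be flagged by chance. None of the 9 receptors was among them. Ackr1, an atypical chemokine receptor, was at 5.2 in Ctrl replicate 4, above the other Ctrl arrays at 4.94 to 4.97. Cd3d, a T cell marker, was at 4.28 in Ctrl replicate 1, below the other Ctrl arrays at 4.59 to 4.63. Both probe sets were dim, at percentiles 17.2 and 9.80 of mean expression.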

How the results depend on the processing

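The count of called receptors was 0 in the 18 alternatives in which it was counted, with limma, and Ccr3 kept its direction in its 18 alternatives (-0.41 to -0.27, adjusted p 0.292 to 0.855), as did Cxcr3 (0.13 to 0.21). The count of receptors at an unadjusted p under 0.05 was 1 with the replicate block, with quantile normalization again and with centring on the 75th percentile, in each of which Cxcr3 was lost. It was 1 to 3 with 1 array left out. The members' median was -0.079 to 0.049 with 1 array left out, and it turned positive without IL6raKO replicate 1. With 1 array left out, 4 single-gene directions reversed: Cx3cr1 (-0.0024 to 0.15), Cxcr2 (-0.24 to 0.049), Vcan (-0.0092 to 0.18) and Plac8 (-0.16 to 0.034). Over all genes the count of 6 called (all lower) became 22 with a trended and robust variance, 11 at or above the median level, 11 at or above the 25th percentile, 3 with quantile normalization again, 12 at an adjusted p under 0.1, 0 with all probe sets and 0 or 1 with 1 array left out. With the replicate block it became 0. Under that block 3 of 12 mast cell, basophil and eosinophil markers and 3 of 11 T and NK cell markers had an unadjusted p under 0.05. The macrophage, monocyte, neutrophil, dendritic cell and B cell lists had 1 such marker each, where 7.3% of all genes had such a p. Over all genes, the deviations of arrays with equal replicate numbers were hardly correlated (-0.01 to 0.04). Of 4 Ctrl arrays, 1 correlated best with its own number. Such a correlation cannot show whether a smaller set of genes is paired. The causes were not tested. The spread between arrays set the widest intervals of the 9 receptors, those of Ccr2 and Cxcr2, and the signal of single probes over background was not analysed here.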
